A study of Mus musculus with 7 samples.

Results

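The clustered protocadherins are the genes of the alpha, beta and gamma protocadherin clusters, which lie next to each other on mouse chromosome 18 and encode cell adhesion molecules best known from neurons. Members were chosen by name, under a rule drawn up with earlier results of these data known. Every gene whose symbol begins with Pcdha, Pcdhb or Pcdhg was taken, with no filter on low counts, which gave 58 of the 27179 genes in the count tables, 14 in the alpha cluster, 22 in the beta cluster and 22 in the gamma cluster. Another 12 protocadherin genes lie outside the clusters and were not members.

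In the alpha and gamma clusters, each variable exon has a promoter of its own and is spliced to constant exons shared by the whole cluster, so that a single neuron transcribes a few members chosen largely at random, and neighbouring neurons carry different combinations. Beta members have no constant exons and are single variable exons. Methylation of the promoters, the insulator protein CTCF and the cohesin ring that holds promoter and enhancer together take part in the choice, while the C-type members at the end of the alpha and gamma clusters are less subject to it. Smchd1, a chromatin protein of the structural maintenance of chromosomes family that silences genes on the inactive X chromosome, at imprinted loci and at these clusters, was the gene removed here.

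RNA-seq counts came from 7 lymphoma cell lines in 2 groups. The 3 wild-type lines carried wild-type Smchd1 and the 4 Smchd1 null lines were homozygous for a mutant Smchd1 allele, which the labels call a gene trap and the methods of the study name MD1. Which of these alleles the lines carried could not be settled from these sources. All 7, controls included, were grown from end-stage tumours of male C57BL/6 mice with the Eµ-Myc transgene, a Myc oncogene under an immunoglobulin heavy chain enhancer that causes B lineage lymphoma, and ages were not given in the sources used here. The labels do not tie the lines to separate mice, so that p-values measure the spread between these lines, which may in part be technical. A line of tumour cells is also a limited model of the tissues in which these genes are normally transcribed. Total counts per library ran from 3626853 to 7519549, so that 3 counts correspond to between 0.399 and 0.827 CPM (the count of a gene per 1000000 counts of its library).

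Several libraries stood apart. Wild-type replicate 1 was the shallowest, the only library of batch 1 and the only one read as single ends, so batch 1 held no Smchd1 null library and its comparison within batch has no value. Wild-type replicates 2 and 3 were much more alike than any other pair of the same group, with a leading log2 fold change distance of 1.26 against 3.11 to 4.92 for the other pairs, although their counts differed by more than sampling noise. In Smchd1 null replicate 4, the B cell surface gene Cd22 stood at 25.4 CPM against 180.0 to 341.2 CPM in the other 6 libraries. The targeted gene followed the labels in every library. Smchd1 stood at 248.1, 230.3 and 218.7 CPM in wild-type replicates 1 to 3 and at 25.9, 22.7, 28.6 and 28.7 CPM in Smchd1 null replicates 1 to 4, with p = 0.0286 in a two-sided exact permutation test, the smallest p that the 35 splits of 7 libraries allow.

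Very few reads fell on the clusters, and nearly all of those that did belonged to 1 gene. The 58 members held 3705 counts over the 7 libraries, and Pcdhgc3, the first of the 3 C-type members at the end of the gamma cluster, held 90.8% of them. The alpha cluster had 37 counts, the beta cluster 30 and the gamma cluster 3638. In all, 23 members were at 0 in every library, 26 had between 1 and 9 counts, and 9 had at least 10. In bulk RNA, fewer cells that transcribe a gene and less RNA per cell cannot be told apart, so a member with a count in a library may be transcribed in few of its cells or weakly in many.

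**Figure D1:**
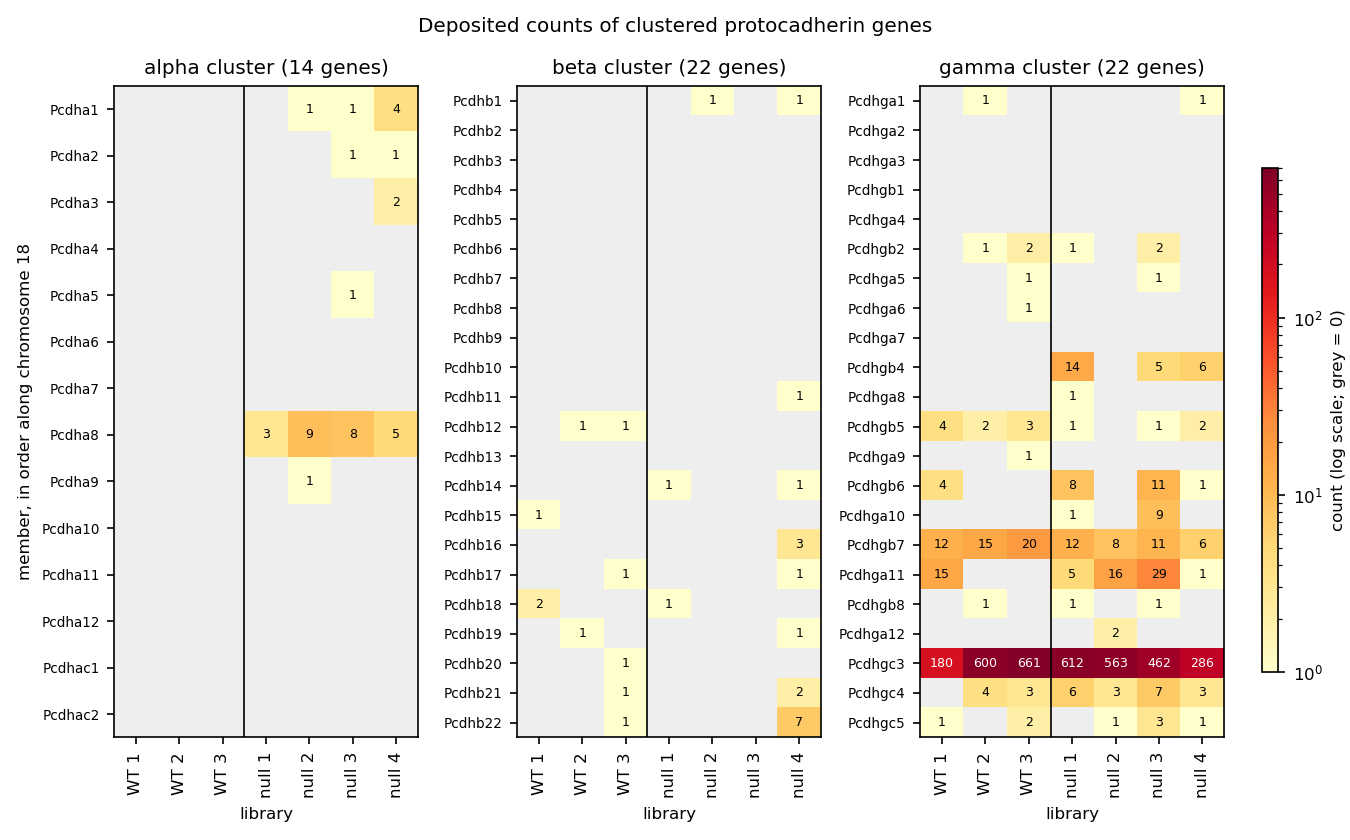
Deposited counts of the 58 clustered protocadherins in the 7 libraries, 1 panel per cluster, with members in chromosomal order from top to bottom, wild-type (WT) libraries left and Smchd1 null libraries right of the vertical line. Colour is the count on a log scale and grey is 0. Pcdhgc3 carries 180 to 661 counts in every library, and the alpha panel is empty for all 3 wild-type libraries.

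The heat map of counts shows the pattern along the chromosome. The alpha cluster, from Pcdha1 to Pcdhac2 (GRCm38, the build the files call mm10, chr18:36930285-37187663), had no counts in the wild-type lines. It gave counts only in Smchd1 null lines and only towards its upstream end, from Pcdha1 to Pcdha9. In the beta cluster (chr18:37264998-37521419), the scattered counts fell on Pcdhb1 and on members from Pcdhb11 onwards, some in 1 group and some in both, and Pcdhb2 to Pcdhb10 and Pcdhb13 had none. In the gamma cluster (chr18:37661775-37841873), every member with at least 10 counts lay at or after Pcdhgb4, the 10th of the 22 members.

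The alpha cluster was the clearest difference between the groups. Its summed level was 0 CPM in each of the 3 wild-type libraries and 0.444, 1.77, 1.70 and 1.60 CPM in Smchd1 null replicates 1 to 4, a mean of 1.38 ± 0.625 CPM (SD, n = 4). Every Smchd1 null library lay above every wild-type library, but the lowest, replicate 1, rested on 3 counts. Against a level of 3 counts over the whole wild-type group, the mean was 7.59-fold higher in Smchd1 null lines. That ratio takes no account of the spread between Smchd1 null libraries, so it is not a lower bound. No test was run on this sum, since the member list was drawn up with earlier results known.

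Pcdha8 (Entrez 353235, chr18:36992467-37187657), an alpha-type adhesion receptor like its neighbours, was the source of most of these counts. It had 0 counts in all 3 wild-type libraries and 3, 9, 8 and 5 counts in Smchd1 null replicates 1 to 4, or 0.444, 1.45, 1.24 and 0.665 CPM. The groups did not overlap. Its mean of 0.948 ± 0.471 CPM (SD, n = 4) was 5.23-fold higher than 3 counts over the wild-type group would give, again with the spread left out. Limma voom with sample weights, which gives noisy libraries less say, fitted a log2 difference of 3.68 (SE 0.563, FDR 0.0121 by Benjamini-Hochberg over all 12303 genes tested). Across all tested genes, this fit called 11.9% differentially expressed (DE, FDR under 0.05) and 5.06% DE and higher in Smchd1 null lines. Pcdha8 passed the filter on low counts, at least 0.5 CPM in 3 or more samples, only through Smchd1 null libraries, so the filter itself picked it where it was high.

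The call for Pcdha8 depended on how libraries were weighted. It held with block weights in voom (limma FDR 0.0405) and within batch 2, that is without wild-type replicate 1 (limma FDR 0.0168). Voom alone, without weights, gave a limma FDR of 0.172 and called 0.0975% of all tested genes, and the edgeR quasi-likelihood test gave an FDR of 0.214. Without wild-type replicate 2 or 3, the 2 libraries that were closely alike, the limma FDR rose to 0.827 and 0.784, and a replicate block gave a limma FDR of 0.0517.

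The other alpha members with counts did not pass the filter and were not tested in the reported fit. Pcdha1 had 0, 1, 1 and 4 counts in Smchd1 null replicates 1 to 4, Pcdha2 had 1 count in each of replicates 3 and 4, and Pcdha3 had 2 counts in replicate 4. Pcdha5 had 1 count in replicate 3 and Pcdha9 had 1 in replicate 2. Pcdha8 made up all of the alpha counts of replicate 1 and 81.8%, 72.7% and 41.7% of those of replicates 2 to 4. These shares rest on 3, 11, 11 and 12 alpha counts. Whether the lines differed in the alpha members they transcribed was not tested. The 8 alpha members with no count in any library were Pcdha4, Pcdha6, Pcdha7, Pcdha10, Pcdha11, Pcdha12 and the C-type members Pcdhac1 and Pcdhac2.

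The beta cluster was close to the limit of detection in both groups. Its summed level was 0.827, 0.328 and 0.733 CPM in wild-type replicates 1 to 3 and 0.296, 0.161, 0 and 2.26 CPM in Smchd1 null replicates 1 to 4. Smchd1 null replicates 1 to 3 all lay below the lowest wild-type library, and replicate 4 lay above the highest. The group means, 0.629 ± 0.265 CPM (SD, n = 3) and 0.679 ± 1.06 CPM (SD, n = 4), differed by far less than the spread between Smchd1 null libraries. Without Smchd1 null replicate 4, the difference of the null minus the wild-type mean was -0.477 CPM in place of 0.0501 CPM.

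Replicate 4 of the Smchd1 null group held 17 of the 20 beta counts of that group, over 8 members. Pcdhb22 had 7 of them and 1 count in wild-type replicate 3, Pcdhb16 had 3 counts there and none elsewhere, and Pcdhb21 had 2 there and 1 in wild-type replicate 3. Pcdhb1, Pcdhb11, Pcdhb14, Pcdhb17 and Pcdhb19 had 1 count each in that library. This is also the library with little Cd22, and the part of that difference in the beta counts was not tested. Pcdhb12, Pcdhb15 and Pcdhb20 had 1 or 2 counts in all, only in wild-type libraries, and Pcdhb18 had 3 counts, 2 of them in wild-type replicate 1. No beta member passed the filter, and 10 were at 0 in every library (Pcdhb2 to Pcdhb10 and Pcdhb13).

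**Figure D2:**
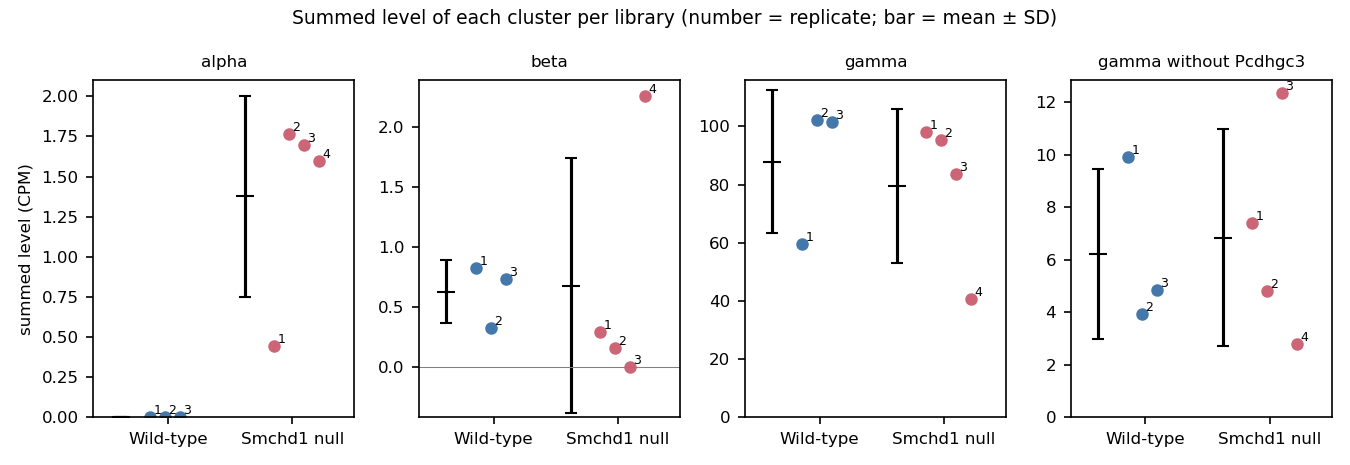
Summed level of each cluster in CPM, the y axis (a different range in each panel), with 1 point per library numbered by replicate, wild-type in blue and Smchd1 null in red, and bars for the mean ± SD (n = 3 and n = 4). The alpha points separate, at 0 against 0.444 to 1.77 CPM, the high beta point is Smchd1 null replicate 4, and the gamma points overlap with and without Pcdhgc3.

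The gamma cluster was transcribed in every line, and its sum did not separate the groups. It stood at 59.6, 102.4 and 101.7 CPM in wild-type replicates 1 to 3 and at 98.0, 95.3, 83.7 and 40.8 CPM in Smchd1 null replicates 1 to 4. The lowest library of each group, wild-type replicate 1 and Smchd1 null replicate 4, lay well below the others of its group. The means were 87.9 ± 24.5 CPM (SD, n = 3) and 79.5 ± 26.5 CPM (SD, n = 4), so that the null minus wild-type difference of -8.42 CPM was smaller than either SD. It was -22.6 CPM without wild-type replicate 1, that is within batch 2, and 4.46 CPM without Smchd1 null replicate 4.

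Pcdhgc3 (Entrez 93706, chr18:37806410-37841873), a C-type isoform that is transcribed more widely than the alternately chosen members, set that sum. Its counts were 180, 600 and 661 in wild-type replicates 1 to 3 and 612, 563, 462 and 286 in Smchd1 null replicates 1 to 4, or 49.6, 98.4 and 96.9 CPM against 90.6, 90.4, 71.4 and 38.03 CPM. The groups overlapped throughout, and the limma log2 difference was -0.25 (SE 0.195, FDR 0.423). That sign turned without wild-type replicate 2, where the log2 difference was 0.21, and without wild-type replicate 3, where it was 0.20. Pcdhgc3 made up between 83.3% (95% Wilson interval 77.8 to 87.7%) of gamma counts in wild-type replicate 1 and 96.2% (94.3 to 97.4%) in wild-type replicate 2, and between 85.2% (82.0 to 88.0%) in replicate 3 and 94.9% (92.9 to 96.4%) in replicate 2 of the Smchd1 null lines. These intervals cover counting error only.

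Per length, which allows levels of different genes to be compared, Pcdhgc3 averaged 16.3 RPKM (CPM per kilobase of the deposited gene length) over the 7 libraries. Pcdhgb7 followed at 0.450 RPKM, Pcdhga11 at 0.365 RPKM, Pcdhgb6 at 0.126 RPKM, Pcdhgb4 at 0.116 RPKM, Pcdhgc4 at 0.112 RPKM and Pcdha8 at 0.103 RPKM. These means pool both groups and divide by a length that includes shared exons. Per kilobase of unshared exon, Pcdha8 (0.219 CPM) came before Pcdhgb4 (0.204 CPM) and Pcdhgc4 (0.194 CPM) instead. Pcdhgc3 stood far above every other member in every library, while the ranges over libraries of the next 6 overlapped one another.

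Without Pcdhgc3, the remaining 21 gamma members summed to 9.93, 3.94 and 4.84 CPM in wild-type replicates 1 to 3 and 7.41, 4.82, 12.4 and 2.79 CPM in Smchd1 null replicates 1 to 4. Both the highest and the lowest value were in Smchd1 null lines, and the means, 6.23 ± 3.23 CPM (SD, n = 3) and 6.84 ± 4.13 CPM (SD, n = 4), did not separate. The leading member varied from line to line within both groups. Pcdhgb7 led in wild-type replicates 2 and 3, with 62.5% and 60.6% of these counts, and Pcdhga11 led in wild-type replicate 1 with 41.7%. Among Smchd1 null lines, Pcdhgb4 led in replicate 1 with 28.0%, Pcdhga11 led in replicates 2 and 3 with 53.3% and 36.3%, and Pcdhgb4 and Pcdhgb7 were level in replicate 4 at 6 counts each, or 28.6%.

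Pcdhgb4 (chr18:37720376-37841870), a B-type gamma adhesion receptor, had 0 counts in the 3 wild-type libraries and 14, 0, 5 and 6 counts in Smchd1 null replicates 1 to 4, or 2.07, 0, 0.772 and 0.798 CPM. It was absent from replicate 2 as from the wild-type lines, so the groups overlapped at 0. Its mean of 0.911 ± 0.859 CPM (SD, n = 4) was 5.02-fold higher than 3 counts over the wild-type group, with the spread between Smchd1 null libraries left out. The limma log2 difference was 2.38 (SE 1.08, FDR 0.173). Like Pcdha8, it passed the filter only through Smchd1 null libraries.

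Pcdhga11 (chr18:37755773-37841873), an A-type gamma adhesion receptor, had 15, 0 and 0 counts in wild-type replicates 1 to 3 and 5, 16, 29 and 1 counts in Smchd1 null replicates 1 to 4. In CPM these were 4.14, 0 and 0 against 0.741, 2.57, 4.48 and 0.133, so that wild-type replicate 1 lay above 3 of the 4 Smchd1 null libraries while the other wild-type libraries lay below all 4. The unweighted means were 1.38 ± 2.39 CPM (SD, n = 3) and 1.98 ± 1.96 CPM (SD, n = 4), which overlapped widely. Limma voom with sample weights gave wild-type replicate 1 a weight of 0.246 against 3.79 and 3.06 for the other wild-type libraries. Smchd1 null replicate 4, the lowest Smchd1 null library for this gene, had a weight of 0.249 against 0.831 to 1.60 for the others of its group. This weighted fit called Pcdhga11 DE with a log2 difference of 4.28 (SE 0.982, FDR 0.0323).

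That call was lost in most other fits. Voom alone gave a limma FDR of 0.699, block weights a limma FDR of 0.131, and the edgeR quasi-likelihood test an FDR of 0.908. Within batch 2, without wild-type replicate 1, the limma FDR was 0.0322 with a log2 difference of 4.48, and it rose to 0.958 without wild-type replicate 2 and 0.926 without wild-type replicate 3. Without Smchd1 null replicate 1, 2 or 3, the limma FDR lay between 0.0535 and 0.0923, and the replicate block gave 0.108.

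Pcdhgb7 (chr18:37751619-37841870), a B-type member, went the other way. Its level was 3.31, 2.46 and 2.93 CPM in wild-type replicates 1 to 3 and 1.78, 1.29, 1.70 and 0.798 CPM in Smchd1 null replicates 1 to 4, on 6 to 20 counts each. Every wild-type library lay above every Smchd1 null library, with means of 2.90 ± 0.425 CPM (SD, n = 3) and 1.39 ± 0.450 CPM (SD, n = 4). The limma log2 difference was -0.86 (SE 0.323, FDR 0.112) and did not pass the threshold. Groups without overlap were found for 13.2% of all tested genes.

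**Figure D3:**
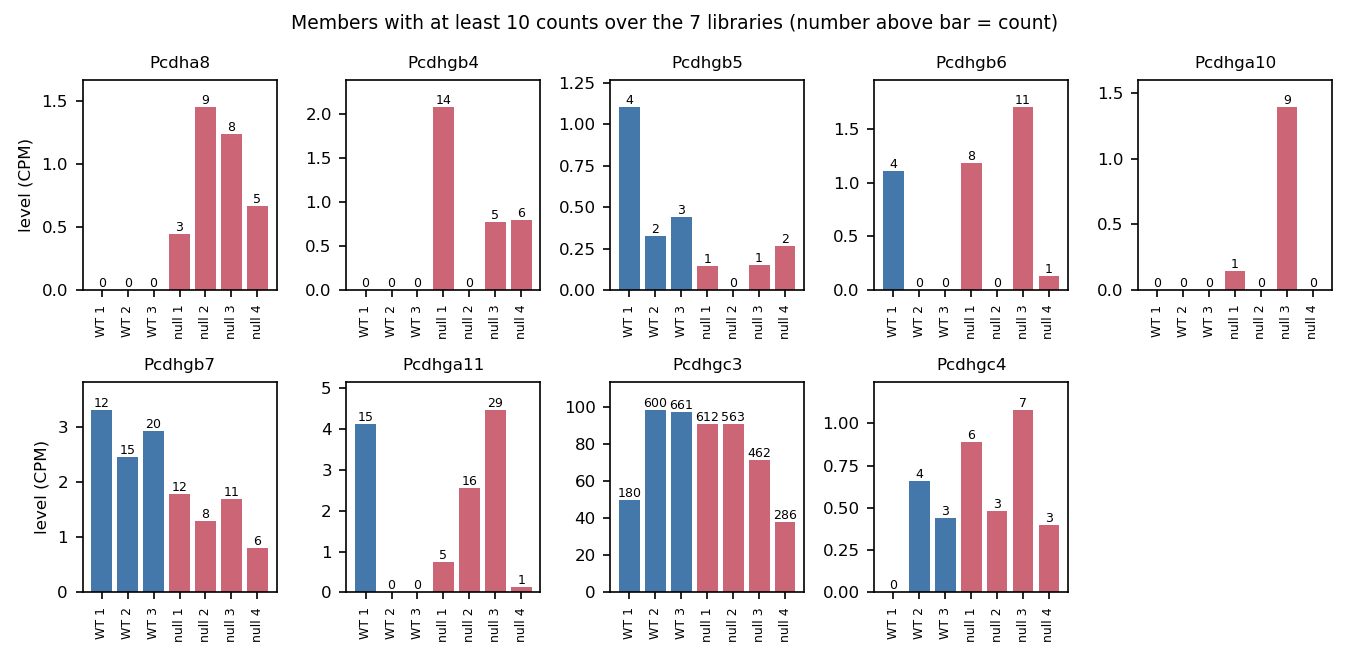
Level in CPM, the y axis (a different range in each panel, from 0), of the 9 members with at least 10 counts, with 1 bar per library, wild-type (WT) in blue and Smchd1 null in red, and the count above each bar. Pcdha8 has bars only in Smchd1 null libraries and Pcdhgb7 is higher in every wild-type library, while Pcdhga11 is high in wild-type replicate 1 and at 0 in the other wild-type libraries.

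Pcdhgb6 and Pcdhgc4 also passed the filter and were not called. Pcdhgb6 had 4, 0 and 0 counts in wild-type replicates 1 to 3 and 8, 0, 11 and 1 counts in Smchd1 null replicates 1 to 4, with a limma log2 difference of 2.13 (SE 1.13, FDR 0.233). Pcdhgc4, another C-type member, had 0, 4 and 3 counts against 6, 3, 7 and 3, with a limma log2 difference of 0.34 (SE 0.514, FDR 0.691). Both overlapped between the groups, and Pcdhgb6 was at 0 in wild-type replicates 2 and 3 and in Smchd1 null replicate 2, with 1 count in Smchd1 null replicate 4.

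Below the filter, Pcdhgb5 had 4, 2 and 3 counts in wild-type replicates 1 to 3 and 1, 0, 1 and 2 in Smchd1 null replicates 1 to 4. Its lowest wild-type level, 0.328 CPM, lay above its highest Smchd1 null level, 0.266 CPM, on 2 counts each. Pcdhga10 had 1 count in replicate 1 and 9 in replicate 3 of the Smchd1 null lines and none in the other 5 libraries, or 1.39 CPM in replicate 3. Neither was tested.

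The remaining gamma members were near 0 in both groups. Pcdhgc5, the last C-type member, had 1, 0 and 2 counts in wild-type replicates 1 to 3 and 0, 1, 3 and 1 in Smchd1 null replicates 1 to 4, and Pcdhgb2 had 0, 1 and 2 against 1, 0, 2 and 0. The other 7 with a count, Pcdhga1, Pcdhga5, Pcdhga6, Pcdhga8, Pcdhga9, Pcdhgb8 and Pcdhga12, had at most 2 counts in any library. The 5 at 0 in every library, Pcdhga2, Pcdhga3, Pcdhgb1, Pcdhga4 and Pcdhga7, all lay in the upstream part of the cluster.

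Of the 7 members that passed the filter, 1 in the alpha and 6 in the gamma cluster, 2 were called DE, beside 11.9% of all tested genes, and 1 of these, Pcdha8, had passed the filter only through Smchd1 null libraries. These 7 are not the whole family, and no result about the clusters is read from this count. The fitted differences of Pcdha8, Pcdhgb4, Pcdhgb6, Pcdhga11 and Pcdhgc4 were positive and those of Pcdhgb7 and Pcdhgc3 negative. Pcdha8 and Pcdhgb4 had 0 counts in every wild-type library and passed the filter only through Smchd1 null libraries, which fixed their direction in advance. Of all tested genes, 49.3% had a positive difference and the median was -0.01.

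The number of members with any count was 8, 9 and 14 in wild-type replicates 1 to 3 and 14, 10, 16 and 21 in Smchd1 null replicates 1 to 4. The groups met at 14, and the highest value was in Smchd1 null replicate 4. Thinned to the total of the shallowest library, the expected numbers were 8, 6.78 and 9.61 against 10.6, 8.07, 13.1 and 14.6, so that the groups overlapped at equal depth as well. With at least 3 counts, the numbers were 5, 3 and 4 against 7, 5, 9 and 8, and overlapped at 5.

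By group, 14 members had counts in Smchd1 null libraries only, 6 of them in the alpha, 4 in the beta and 4 in the gamma cluster. Counts in wild-type libraries only were found for 5 members, 3 beta and 2 gamma, and 16 members had counts in both groups. The Smchd1 null group has 4 libraries and 26972391 counts against 3 libraries and 16546416 counts, which by itself leaves more room for a member to be seen there. Without Smchd1 null replicate 4, 11 members were seen in Smchd1 null libraries only, 5 alpha, 2 beta and 4 gamma. No share over all genes stands beside these counts, so no result about the members is read from them.

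How the clusters are built limits what a count per member can mean. By the GENCODE M21 exons, 48.6% to 98.3% of the exon bases of an alpha member and 13.4% to 45.5% of those of a gamma member are shared with another gene, because of the constant exons, against at most 9.7% in the beta cluster. How reads that fall on more than 1 gene were counted is not given in the sources used here, and if they were left out, the counts rest on the variable exons alone. Pcdha4 has only 93 unshared bases, since the gene model Gm37013 takes in its variable exon. Gm37013 runs from Pcdha4 to the end of the gamma cluster and has 0 counts in every library. The 0 counts of Pcdha4 therefore say little about it. Near-identical stretches add to this, with up to 13.0% of the 100-base windows of an alpha member (Pcdha11) and 10.7% of those of a gamma member (Pcdhgb2) found in another member, and 5.34% for Pcdha8.

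Strand is a further limit, because the strand setting of the counting is not given here either. Of the 2568 unshared exon bases of Pcdhgc3, 1513 overlap the gene BC037039 on the other strand. All 2613 of Pcdhga10, 1381 of the 2637 of Pcdhga11 and 771 of the 2594 of Pcdhgb7 overlap an antisense gene too, and without strand the reads of both cannot be told apart. Pcdha8, Pcdhgb4, Pcdhgb5, Pcdhgb6 and Pcdhgc4 have no such overlap.

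**Figure D4:**
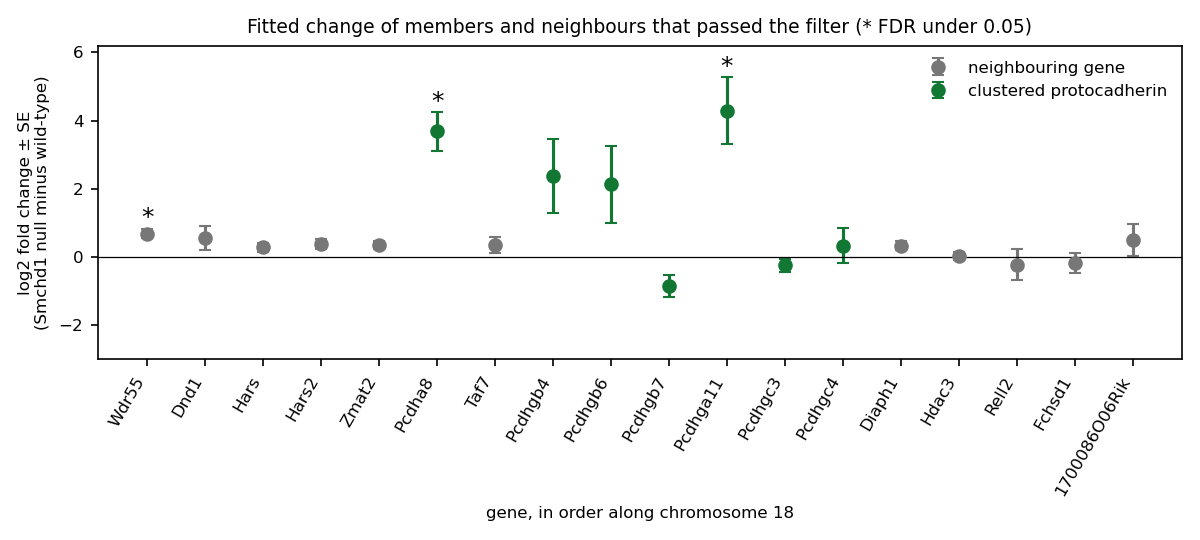
Limma log2 difference of Smchd1 null minus wild-type lines (y axis, point ± SE) for the 7 clustered protocadherins (green) and 11 neighbours (grey) that passed the filter, in order along chromosome 18 but not to scale. Asterisks mark an FDR under 0.05. Pcdha8 and Pcdhga11 stand at 3.68 and 4.28, while the neighbours run from -0.23 to 0.69.

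Genes that flank or interrupt the clusters were read from the same fit. Of the 11 neighbours that passed the filter, 1 was called DE, beside 11.9% of all tested genes, and it was not called by voom alone (limma FDR 0.523). Wdr55, a nucleolar protein upstream of the alpha cluster, had a limma log2 difference of 0.69 (SE 0.138, FDR 0.0227). It stood at 91.5, 43.6 and 50.1 CPM in wild-type replicates 1 to 3. In Smchd1 null replicates 1 to 4 it stood at 66.35, 81.6, 78.9 and 84.3 CPM, a mean of 77.8 ± 7.94 CPM (SD, n = 4). Wild-type replicate 1 thus lay above every Smchd1 null library. Taf7, a subunit of the general transcription factor TFIID that lies between the beta and gamma clusters, had 228, 207 and 199 counts against 244, 258, 399 and 153 and a limma log2 difference of 0.36 (FDR 0.312). Slc25a2, beside it, had 15 counts in all and was not tested. Hdac3, a histone deacetylase downstream of the gamma cluster, had a limma log2 difference of 0.03 (FDR 0.879).

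The rest of chromosome 18 moved in some lines. For 276 tested chromosome 18 genes outside the clusters, the median log2 deviation from the mean over libraries was 0.32 and 0.35 in Smchd1 null replicates 3 and 4 and between -0.21 and -0.01 in the other 5 libraries, against -0.02 to 0.05 for all genes. Its part in the protocadherin counts was not tested.

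Factors known to act on the clusters were read from the same fit. Of 23 listed regulators (CTCF, cohesin and its loaders, DNA methyltransferases, TET enzymes and related silencers), 21 were tested, none rose and 3 fell, in a fit that called 11.9% of all tested genes. None of the 3 was called by voom alone (limma FDR 0.270 to 0.630). Smc3, a core cohesin subunit, averaged 374.2 ± 18.7 CPM in wild-type (SD, n = 3) and 271.4 ± 27.0 CPM in Smchd1 null lines (SD, n = 4), a limma log2 difference of -0.50 (FDR 0.0172). Dnmt3a, a DNA methyltransferase, fell from 104.9 ± 23.6 to 69.9 ± 12.4 CPM (limma FDR 0.0383), and Tet2, which oxidises methylcytosine, from 28.8 ± 8.79 to 21.8 ± 6.31 CPM (limma FDR 0.0402). Tet2 overlapped between the groups, with 19.0 CPM in wild-type replicate 1 and 28.9 CPM in Smchd1 null replicate 4. The median log2 difference of the 21 was 0.12.

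Of 20 listed intracellular partners, which carry protocadherin signals to kinases and to the WAVE actin complex, 16 were tested and 3 were called DE, again beside 11.9% of all tested genes and none of them by voom alone (limma FDR 0.273 to 0.524). The WAVE subunits Brk1 and Cyfip2 rose by log2 differences of 0.37 (limma FDR 0.0395) and 0.40 (limma FDR 0.0472), and the WAVE subunit Abi2 fell by 2.25 on the log2 scale (limma FDR 0.0376). Abi2 overlapped between the groups, with 16.4 CPM in Smchd1 null replicate 4 against 10.3 and 10.6 CPM in wild-type replicates 2 and 3. Cyfip2 overlapped too, with 915.4 CPM in wild-type replicate 1 against 767.7 and 832.8 CPM in Smchd1 null replicates 1 and 2. The median of the 16 was 0.04.

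The protocadherins outside the clusters were likewise mostly at 0 or near it. Of the 12, 6 were at 0 in every library and 1 passed the filter. That one, Pcdh17, an adhesion molecule of the delta family, stood at 1.103, 0 and 0 CPM in wild-type replicates 1 to 3 and at 58.9, 5.46, 1.08 and 21.3 CPM in Smchd1 null replicates 1 to 4. Only Smchd1 null replicate 3 fell within the wild-type range, but the lines spread widely and the limma log2 difference of 6.65 (SE 2.08) had an FDR of 0.0721. Pcdh18 was at 19.95 CPM in Smchd1 null replicate 4 and at 0 in every other library.

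Markers of other cell types were at 0 or low for most genes, with a few exceptions such as Tubb3, at up to 246.2 CPM, and Pecam1, an adhesion molecule of endothelial and blood cells, at up to 219.0 CPM. Of 8 neuron markers, 5 (Snap25, Syt1, Rbfox3, Stmn2 and Nefl) were at 0 in every library. The list summed to between 35.3 and 165.2 CPM in wild-type and between 70.1 and 256.0 CPM in Smchd1 null lines. Tubb3, a tubulin, was called higher (limma log2 difference 1.95, FDR 0.0340), but overlapped between the groups. Its 136.8 CPM in wild-type replicate 1 lay above the 69.6, 78.8 and 61.8 CPM of Smchd1 null replicates 1, 3 and 4. The 11 B cell markers summed to 4872 to 5217 CPM in wild-type and 4176 to 5548 CPM in Smchd1 null lines, with Cd79a called higher and Ebf1 lower. In Smchd1 null replicate 4, Cd79a (100.4 CPM), Cd22 (25.4 CPM), Pax5 (16.6 CPM), Ebf1 (25.5 CPM) and Cd24a (905.6 CPM) were each at their lowest of the 7 libraries. Igll1 was at 0 there, as in Smchd1 null replicates 1 and 3. Other B cell markers went the other way in that library. Ptprc was at its highest of the 7 libraries (429.9 CPM), and Cd79b (302.9 CPM) lay above every wild-type library. Ighm (2368 CPM) lay within the wild-type range. The lineage of that line was not tested. T and NK cell markers summed to 17.9 to 62.0 CPM against 1.45 to 14.5 CPM (Lck called lower), myeloid markers to 3.03 to 12.2 against 0.296 to 27.8 CPM, and fibroblast markers to 0 to 10.2 against 0 to 0.266 CPM. Endothelial markers, with Kdr and Vwf at 0, summed to 47.7 to 70.4 against 63.5 to 223.4 CPM, glial markers to 3.94 to 14.6 against 2.37 to 85.4 CPM and erythroid markers to 0.440 to 1.31 against 0.463 to 1.63 CPM. The weighted fit that called Tubb3, Cd79a, Ebf1 and Lck called 11.9% of all tested genes. Voom alone called none of them (limma FDR 0.317 to 0.751). The part of these marker levels in the protocadherin counts was not tested.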

How the data were processed

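Total RNA of 7 lymphoma lines went into TruSeq v2 libraries for Illumina HiSeq sequencing. Subread alignment to mm10 and featureCounts summarisation were done by the authors, who deposited raw counts per Entrez gene, not normalised and not pooled. CASAVA 1.8.2, edgeR 3.8.2 and limma 3.22.0 appear in the submitters' processing notes. The annotation release, the strand setting and the treatment of multi-mapping reads and of reads on several genes are not given in the sources used here.

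Symbols and coordinates came from RefSeq on GRCm38.p6 by Entrez identifier, for 25275 of 27179 genes (98.2% of counts), and exons from GENCODE M21. Members, gene lists and tests were chosen with earlier results of these data known. Every member was described. Those with at least 10 counts were given per library, and those past the filter also with the fit. Neighbours were the genes between the outermost members and the 5 nearest tested genes on each side.

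CPM was the deposited count over the library total. In R (version 4.3.3), the 12303 genes that reached 0.5 CPM in 3 samples or more were normalised by TMM and fitted by voomWithQualityWeights with 1 variance factor per sample, lmFit and eBayes in limma (version 3.58.1), as the study did, with Benjamini-Hochberg adjustment over all genes. No test was run on sums or detection numbers. Alternatives were voom alone, block weights, sample removal, quasi-likelihood tests in edgeR (version 4.0.16), DESeq2 (version 1.42.0), other filters, scaling and threshold, the replicate number as a block, wild-type replicates 2 and 3 summed, and leaving out each library. The omission of each library for members seen in Smchd1 null libraries only was added after seeing the data. The results of 1 listed marker are not reported here. The code was tested on simulated data. Correlations between members were not computed, because counts were sparse.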

Additional observations from a re-analysis of the deposited data

Results flagged for a closer look

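Within the 4 Smchd1 null lines, 41 levels, a part of the members, cluster sums, neighbours and listed genes, were screened. A level was marked if 1 library's gap to the nearest other took up more of the range than Dixon's limit for 4 samples allows. In all, 9 were marked. About 2.05 would be for independent, normally distributed values, which sparse counts are not, so no conclusion is drawn from this number. Levels outside the 41 can stand apart too, such as Ms4a1 in replicate 3, at 12.82 CPM against 0.798 CPM. Among the clusters, Pcdhga10 stood at 1.39 CPM in replicate 3, with the next highest at 0.148 CPM. The alpha sum was lowest in replicate 1, at 0.444 CPM against 1.60 CPM for the nearest library, and the beta sum was highest in replicate 4, at 2.26 CPM against 0.296 CPM.

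Most of the others were also in Smchd1 null replicate 4. Fchsd1, downstream of the gamma cluster, stood at 14.6 CPM against 5.30 CPM in the nearest library, and Abi2 at 16.4 CPM against 3.11 CPM. Pcdh10 and Pcdh18, protocadherins outside the clusters, stood at 1.46 and 19.95 CPM there and at 0 in the other 3 lines, and Cd79a, part of the B cell receptor, was lowest there at 100.4 CPM against 408.9 CPM. Tubb3 was highest in replicate 2, at 246.2 CPM against 78.8 CPM.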

How the results depend on the processing

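The number of clustered protocadherins called DE was 2 in the reported fit (1466 of 12303 genes in all). It stayed 2 with RLE scaling (1442 genes in all) and with an FDR under 0.1 (2797 genes in all). It was 1 with block weights (Pcdha8, 493 genes in all). With voom alone (12 genes in all), sample removal (521 genes in all) and DESeq2 (384 genes in all) it was 0. EdgeR also gave 0, with the filter (12 genes in all) and without it (8 of 16882 genes in all). The number was 0 too with at least 10 counts in every sample (1533 of 9522 genes in all), wild-type replicates 2 and 3 summed (1 gene in all) and the replicate block (222 genes in all). DESeq2 gave an FDR to 3 of the 7 members, and requiring 10 counts in every sample left 1 member. With no filter, 3 of 35 members were called, beside 1460 of 16882 genes in all, Pcdhb12 on 1 count in each of 2 wild-type libraries. Leaving out 1 library gave 0 to 2 calls. It was 0 without wild-type replicate 2 or 3, with 1 gene called in all each time. It was 1 without Smchd1 null replicate 1 (443 genes in all) or 3 (923 genes in all). Without Smchd1 null replicate 2 (281 genes in all), the calls were Pcdha8 and Pcdhgb4, the latter with a log2 difference of 3.85 (limma FDR 0.0329). Replicate numbers did not pair the samples, since deviations of same-numbered samples correlated at -0.15, 0.22 and -0.21 across genes.

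The log2 difference of Pcdha8 ran from 3.29 to 5.59, with a direction that its 0 counts in every wild-type library fixed. Pcdhga11 ran from 0.60 to 4.81 and Pcdhgb7 from -1.08 to -0.75. Pcdhgc3 turned to 0.16 with wild-type replicates 2 and 3 summed and ran from -0.44 to 0.21 when 1 library was left out. Leaving out 1 library moved the null minus wild-type difference of the alpha sum between 1.25 and 1.69 CPM, of the beta sum between -0.477 and 0.277 CPM and of the gamma sum between -22.6 and 4.46 CPM, the last 2 turning sign without Smchd1 null replicate 4 and the beta sum also without wild-type replicate 2 and over members with no shared exon bases (-0.152 CPM), and the number of members seen in Smchd1 null lines only between 11 and 18. Depth limits most members, where 1 or 2 counts decide a value.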
